A study of Vitis vinifera with 12 samples.

Results

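Dilkhush fruit peel was compared with fruit peel of both other grape (Vitis vinifera) cultivars of the study, Bangalore blue and Red globe, row by row in the deposited peel table. A row was kept where Dilkhush lay at least 4-fold above, or at least 4-fold below, each of the others on the RPKM + 1 scale, with at least 10 RPKM in the higher cultivar of each pair. RPKM is a read count scaled to the length of the transcript and to all reads of the column. Of 24859 peel rows without transfer RNA names, 219 met the rule, 161 higher and 58 lower in Dilkhush. The study sequenced messenger RNA from young leaves and fruit peels of the 3 cultivars, whose anthocyanin content varies per the series' design text, with 2 libraries for each cultivar and tissue. The labels give no treatment, age or growth stage, and do not say whether the 2 libraries came from separate plants. The deposited tables hold 1 RPKM column for each cultivar and tissue, so there is no replicate error and no test, and every difference describes these columns only.

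Grape skin is coloured by anthocyanins, made from phenylalanine through chalcone synthase and later flavonoid enzymes, then glucosylated, methylated and carried into the vacuole of skin cells. The same pathway also feeds colourless proanthocyanidins (tannins) and flavonols. Ripening skin in addition accumulates pathogenesis-related proteins and sugar, and moves water through aquaporin channels of the plasma membrane and the vacuole membrane.

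How deeply each column was sequenced is unknown. Rows named as transfer RNA held between 13.8% and 33.6% of the summed RPKM of a peel column, and the rest summed to between 714418 and 799313 RPKM. The 11 rows fixed as ripe berry markers (GRIP genes, TL3 and HT6) summed to 26352 RPKM in Dilkhush peel, 42197 in Bangalore blue peel and 17588 in Red globe peel. TL3 alone, on a row shared with other identifiers, held 23183 RPKM of the Bangalore blue sum. It was 3779 RPKM in Dilkhush and 3959 in Red globe, so this row weighs heavily on the order of the sums. By row, Dilkhush peel was highest in 5 of the 11 and lowest in 3. In Dilkhush leaf the 11 rows summed to 533. The tables were normalized separately, so levels set across them are approximate. The 4 green tissue rows (PSBP1, PSBP2, CHLH and NDHM) summed to 558 RPKM in Dilkhush peel and 2514 in Dilkhush leaf. Their sum was 406 RPKM in Bangalore blue peel and 282 in Red globe peel. The 3 pigmented skin markers, UFGT, GST4 and FAOMT, summed to 11.95 RPKM in Dilkhush peel against 2594 in Bangalore blue and 1601 in Red globe, with FAOMT listed at 0. All 3 are themselves rows that the rule counted lower, so this sum is not separate from the results below. In bulk tissue, fewer cells of a type and less RNA per cell cannot be told apart.

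The rows that met the rule made up 2.4% of the 9123 rows that reached the floor, 1.76% higher and 0.636% lower. A row reached the floor where Dilkhush, or both other cultivars, had at least 10 RPKM. Rows thus enter on Dilkhush alone but not on 1 other cultivar alone. This can raise the share of floor rows in which Dilkhush is highest and reduce the share in which it is lowest. The rule chose them on these same values, so their sizes are a description. Among the 161 higher rows the median level was 28.5 RPKM in Dilkhush, 2.21 in Bangalore blue and 2.32 in Red globe. Among the 58 lower rows it was 2.74 RPKM in Dilkhush, 56.7 in Bangalore blue and 46.0 in Red globe. The smaller of the 2 log2 differences was at least 3 (8-fold) in 59 higher and 32 lower rows. The lower rows took 0.208% of the summed RPKM without transfer RNA in Dilkhush peel and 2.68% in Bangalore blue and 2.55% in Red globe. Only 5 of the higher and 9 of the lower rows carried a gene symbol in the file or the reference, so most are known by number alone. For comparison, the same rule gave 187 rows (2.08%) for Bangalore blue peel and 170 (1.88%) for Red globe peel, from the same 3 columns.

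**Figure D1:**
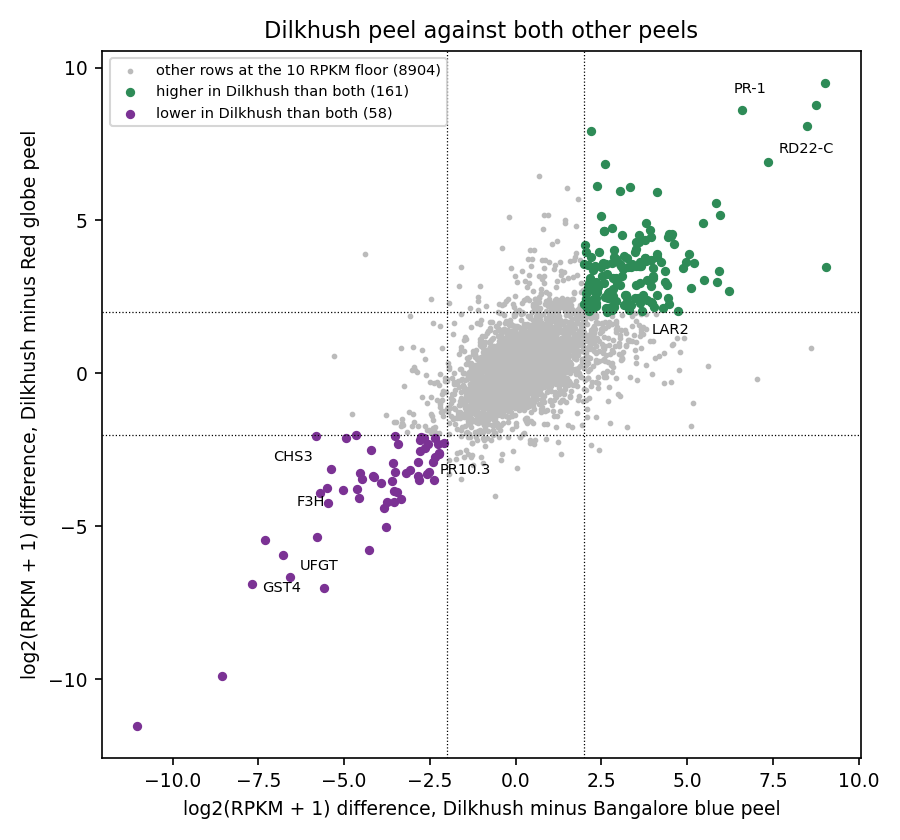
Each point is a peel row at the 10 RPKM floor, with the log2(RPKM + 1) difference of Dilkhush from Bangalore blue on the horizontal axis and from Red globe on the vertical axis. Dotted lines mark differences of 2 (4-fold); the 161 rows higher in Dilkhush lie at upper right and the 58 lower rows at lower left, among them GST4, UFGT, F3H and CHS3.

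Of the 9 lower rows with a symbol, 5 belong to the flavonoid pathway, from its entry to the vacuole. CHS3, a chalcone synthase that builds the flavonoid skeleton, was 49.7 RPKM in Dilkhush, 2096 in Bangalore blue and 443 in Red globe. F3H, the flavanone hydroxylase that follows, was 7.48, 277 and 117 RPKM in the same order. UFGT, which puts glucose on anthocyanidins, was 2.09 RPKM in Dilkhush against 297 and 308. For UFGT the other cultivars were nearly level, whereas CHS3 and F3H were higher in Bangalore blue than in Red globe.

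GST4, a glutathione S-transferase that takes part in carrying anthocyanins into the vacuole, was 9.86 RPKM in Dilkhush, 2246 in Bangalore blue and 1279 in Red globe. Its log2 differences of -7.69 and -6.88 were the largest among lower rows with a symbol. FAOMT, an anthocyanin O-methyltransferase, was listed at 0 in Dilkhush and was 50.8 and 14.1 RPKM in the others. The fixed list of late anthocyanin genes had 7 rows of at least 1 RPKM, and Dilkhush was the lowest cultivar in all 7, although 3 met the rule. The list of early flavonoid and phenylpropanoid genes was alike, with Dilkhush lowest in 7 of 7 and 2 past the rule. Those 7 include a PAL row near the bottom of the range, at 0.126 RPKM in Dilkhush against 0.249 and 1.29. Over all rows at the floor, Dilkhush was the lowest cultivar in 25.8%, and 0.636% were counted lower. The lists took rows from 1 RPKM, so the sets are not fully alike. The rows past the rule are lowest in Dilkhush by its definition. The counts of both lists were the same with a pseudocount of 0.1 and under each of the 3 other column scalings tried.

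The rows of these lists that missed the rule had smaller differences from at least 1 of the other cultivars. LDOX, the dioxygenase that forms anthocyanidins, was 171 RPKM in Dilkhush, 2010 in Bangalore blue and 510 in Red globe, so only the pair with Bangalore blue was 4-fold apart. F3'5'H, the hydroxylase that leads to blue and purple anthocyanins, was 0.0341 RPKM in Dilkhush and 0.152 in Red globe against 37.4 in Bangalore blue, and so did not set Dilkhush apart from both. DFR, the reductase that acts just before LDOX, was 108 RPKM against 369 and 244. F3'H, a hydroxylase of the flavonoid B ring on a row shared with another identifier, was 17.97 RPKM against 42.0 and 42.8. A pair of rows named CHS, which may share reads with each other, was 169.8 and 52.4 RPKM in Dilkhush, the lowest cultivar in both. CHI, the chalcone isomerase, was 127 RPKM against 291 and 270.2, and 4CL, a coumarate-CoA ligase upstream of it, 7.25 against 23.8 and 20.7.

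The other 4 lower rows with a symbol lie outside that pathway. CCD4b, a carotenoid cleavage dioxygenase, was 0.413 RPKM in Dilkhush, 24.4 in Bangalore blue and 13.5 in Red globe. CIPK15, a kinase of the family that acts with calcium sensor proteins, was 5.94 RPKM against 48.1 and 77.3. GER7, of the germin-like family of cell wall proteins, was 0.313 RPKM against 29.6 and 11.4. PR10.3, a pathogenesis-related protein of class 10, was 42.4 RPKM in Dilkhush against 257 and 424. CCD4b and CIPK15 are known here from synonyms in the reference table and not from the file.

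Of the lower rows with no symbol, LOC100241269 was listed at 0 in Dilkhush and stood at 2108 RPKM in Bangalore blue, with Red globe at 2924. LOC100243166 was likewise listed at 0, against 378 and 938 RPKM. LOC104881978, named after its values were seen, was the remaining row of the 4 listed at 0 in Dilkhush, at 10.1 and 13.8 RPKM in the others. A further 13 lower rows were above 0 but under 1 RPKM in Dilkhush. Bangalore blue was above Red globe in 32 of the 58 lower rows and below it in 26, and the pair lay within 2-fold of each other in 39.

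Higher in Dilkhush peel were a pathogenesis-related gene, a dehydration-responsive gene, a vacuolar water channel and a tannin enzyme. The row named PR-1 and PR1, a pathogenesis-related protein that is a common marker of salicylic acid responses in plants, was 669.8 RPKM in Dilkhush, 5.98 in Bangalore blue and 0.705 in Red globe. RD22-C, of a family that responds to dehydration, was 246 RPKM against 0.496 and 1.04. TIP1;1, an aquaporin of the vacuole membrane, was 68.4 RPKM against 10.1 and 6.28. The smaller log2 difference was 6.59 for PR-1 and 6.92 for RD22-C. For TIP1;1 it was 2.65, near the median of 2.62 over the higher rows.

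LAR2, a leucoanthocyanidin reductase that makes catechin units of proanthocyanidins, was 61.8 RPKM in Dilkhush, 3.92 in Bangalore blue and 14.3 in Red globe. Its log2 difference from Red globe of 2.04 was close to the 4-fold line and fell below it, to between 1.88 and 1.97, under the 3 other column scalings. The companion gene LAR1 was 1.94 RPKM or less in every peel, and MYBPA1, a regulator of that branch, was 10.9 RPKM in Dilkhush between 6.33 and 13.5. GFH2, the fifth named row, was 172 RPKM in Dilkhush against 12.8 and 34.1.

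**Figure D2:**
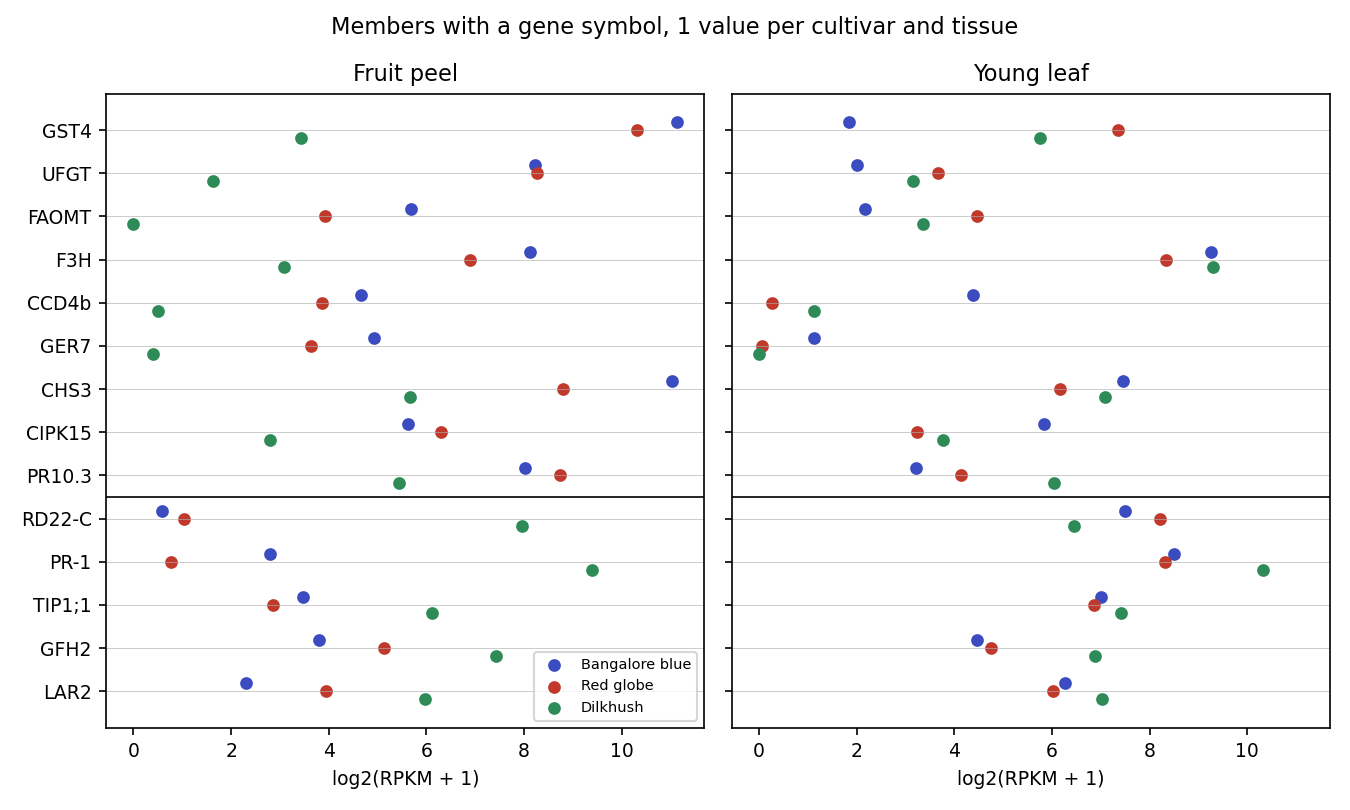
Levels of the 14 rows with a gene symbol as log2(RPKM + 1) in fruit peel (left) and young leaf (right), 1 point per cultivar, with rows lower in Dilkhush peel above the line and higher rows below it. In peel the Dilkhush point stands apart on every row, from FAOMT listed at 0 to PR-1 at 669.8 RPKM, whereas in leaf it lies between the others for GST4, UFGT and FAOMT.

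Among higher rows with no symbol, LOC100852930 was 825 RPKM in Dilkhush, 0.591 in Bangalore blue and 0.143 in Red globe. LOC100248924 was 432 RPKM in Dilkhush and listed at 0 in both others. In all, 7 higher rows were listed at 0 in both other peels, and the remaining 6 were at most 22.7 RPKM in Dilkhush. Both other cultivars were under 1 RPKM in 32 of the 161. The highest Dilkhush level, 1175 RPKM, was that of LOC100254233, at 256 in Bangalore blue and 3.79 in Red globe. The other cultivars were within 2-fold of each other in 107 higher rows and at least 4-fold apart in 19, with each above the other in 77.

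Some rows lay close to the 4-fold line on either side. The 3 higher rows just inside it had a smaller log2 difference of at most 2.01, and the 3 just outside had 1.97 to 1.99. Among lower rows the nearest inside were -2.01 to -2.04 and the nearest outside -1.95 to -1.96.

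Beyond TIP1;1, most of the aquaporin list was highest in Dilkhush peel. Dilkhush was the highest cultivar in 9 of 12 rows, against 45.6% of all rows at the floor. The list median was 1.33 against Bangalore blue and 1.52 against Red globe on the log2 scale. Over all rows at the floor the medians were 0.12 and 0.15. The list values include TIP1;1, which alone met the rule and is highest by its definition. The list took rows from 1 RPKM, and 9 of the 12 reached 10 RPKM in a peel column, so the sets are not fully alike. The floor also admits rows on Dilkhush alone, which can raise the 45.6%. The count of 9 rows highest in Dilkhush was the same under every scaling tried, but the 45.6% was computed on the unscaled columns only. Under the 3 other column scalings the list medians were 1.16 to 1.26 against Bangalore blue and 1.22 to 1.45 against Red globe. The medians over all rows at the floor were then 0.02 to 0.05 and -0.01 to 0.08. PIP2;3, a water channel of the plasma membrane, was 269 RPKM in Dilkhush, 31.2 in Bangalore blue and 99.6 in Red globe. TIP1;2, of the vacuole membrane, was 769.6 RPKM against 134 and 250.3. PIP1;2, on a row shared with another identifier, was 609 RPKM against 184 and 43.1. TIP2;1 was in contrast highest in Bangalore blue, at 876 RPKM against 518 in Dilkhush and 159 in Red globe, and TIP4 was listed at 0 in Dilkhush. The list also took in a row with the synonym SIP, whose role the table does not give, at 199 RPKM in Dilkhush between 159 and 396.

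**Figure D3:**
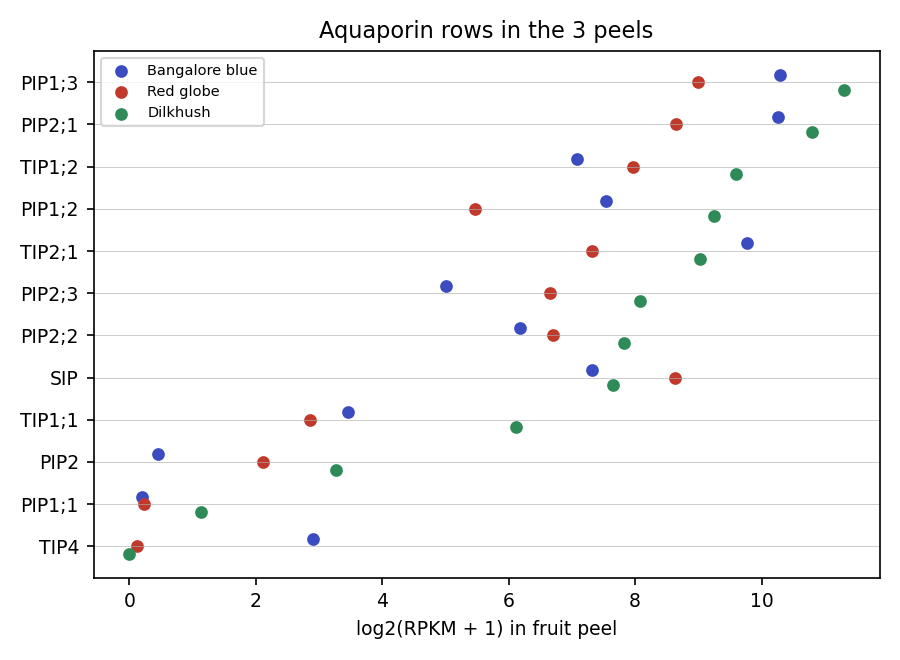
Levels of the 12 aquaporin list rows in fruit peel as log2(RPKM + 1), 1 point per cultivar, ordered by the Dilkhush level. Dilkhush is rightmost in 9 rows, including TIP1;1 at 68.4 RPKM, and TIP2;1, SIP and TIP4 are the exceptions.

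In the remaining lists the rows past the rule were few in number, but the lists are short. Over all rows at the floor 2.4% met the rule, and Dilkhush was lowest in 25.8% and highest in 45.6%. These lists too took rows from 1 RPKM, whereas the floor admits rows on Dilkhush alone, so the shares are not fully alike. In the stilbene list Dilkhush was lowest in 4 of 4, yet none was counted. In each row Bangalore blue or Red globe was under 10 RPKM, and all but the larger STS row also missed the 4-fold size against at least 1 cultivar. The larger STS row, a stilbene synthase whose near-identical copies can share reads, was 0.434 RPKM in Dilkhush against 7.33 and 26.4. MYB14, a regulator of stilbene synthases, was 1.25 RPKM against 12.5 and 4.71. Of 8 flavonoid MYB, bHLH and WD-repeat regulators none met the rule, and Dilkhush was lowest in 4 and highest in 3. That 3 became 2 after quantile normalization and 1 when columns were set to equal sums with transfer RNA left out. A row carries the synonyms mybA, MybA1 and MybA3, of a family that includes activators of anthocyanin genes in grape skin. That row was 22.5 RPKM in Dilkhush against 102 and 36.1, and MYBC2-L1, a repressor, 21.5 against 92.0 and 25.7.

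Of 20 pathogenesis and defence rows, PR-1 was counted higher and PR10.3 lower. Dilkhush was lowest in 8 of the 20 and highest in 3, or in 2 under the same 2 scalings. Over all rows at the floor 1.76% were counted higher and 0.636% lower, and Dilkhush was lowest in 25.8% and highest in 45.6%. PR10.2 was 1322 RPKM in Dilkhush against 3523 and 5128. LOX, a lipoxygenase, was 4.22 RPKM against 5.64 and 59.2. Of 27 abscisic acid, dehydration and cold rows, RD22-C was counted higher and CCD4b and CIPK15 lower. A pair of CIPK16 rows was also lowest in Dilkhush, the larger at 3.43 RPKM against 34.1 and 10.1.

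No row of the sugar transport list (11 rows) or of the ripening and cell wall list (15 rows) met the rule. With 2.4% of all rows at the floor past it, lists this short can hold none. HT6, a hexose transporter, was 364 RPKM in Dilkhush against 145 and 143, and CWINV, a cell wall invertase, was 2.55 against 3.61 and 24.7. HT5 was 1.03 RPKM in Dilkhush against 4.004 and 28.0. Dilkhush was highest in 8 of 15 ripening and cell wall rows, a share near the 45.6% of all rows at the floor. The count was 7 under those 2 scalings, for which the share over all rows was not computed. ADH3, an alcohol dehydrogenase, was 196 RPKM against 84.7 and 47.0, and PL1, a pectate lyase that loosens cell walls, 883 against 442 and 253. GRIP32, a ripening-induced gene, was lower, at 62.4 RPKM against 156 and 421.

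Some members lay near each other in the gene order of the reference assembly (GCF_030704535.1), which the rule did not use, although most did not. Of 148 higher rows placed there, 24 (16.2%) had another higher row among the 5 nearest entries on either side, against 4.88% of 8664 other rows at the floor. Of 54 lower rows placed, 9 (16.7%) had another lower row that near, against 1.48% of the other rows. The 5 lower rows with a lower row as immediate neighbour are all in the run that starts at PR10.3. Neighbouring genes can be copies of each other, and reads shared between copies would be counted for both. No source used here says how such reads were counted. The 33 rows form 9 runs of higher and 3 runs of lower members, which were singled out after their values were seen.

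The longest unbroken run began at PR10.3 and took in the 4 entries after it, all lower in Dilkhush peel. LOC100261887 was 2.32 RPKM in Dilkhush, 63.4 in Bangalore blue and 178 in Red globe. LOC100256795 was 0.387 RPKM against 18.1 and 44.1, and LOC100251668 was 1.49 against 29.2 and 27.2. LOC100246525, the last of the run, was 0.327 RPKM against 14.6 and 18.04. The reference gives these 4 no symbol.

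The same 5 rows stood the other way in leaf, where Dilkhush was the highest cultivar in 5 of 5. PR10.3 was 64.7 RPKM in Dilkhush leaf, 8.34 in Bangalore blue and 16.7 in Red globe. LOC100261887 was 13.1 RPKM against 2.38 and 3.73. LOC100246525 was 11.3 RPKM against 1.81 and 1.65, and was the row of the run past the 4-fold rule in leaf. The run was not alone in this. PR10.2, lowest in Dilkhush peel, was 956 RPKM in Dilkhush leaf against 545 and 83.3, and PR10.8 did likewise near 1 RPKM. PR10.4, PR10.7 and PR10.9 were also highest in Dilkhush leaf but not lowest in Dilkhush peel. PR10.5 and PR10.6 were listed at 0 in Dilkhush leaf. Over the other rows at the floor that could be matched, Dilkhush was the highest cultivar in leaf in 27.8%.

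A run of higher rows took in 4 of 5 consecutive entries and held LOC100852930, the row with the largest smaller-of-2 difference. LOC100852969, also in it, was 120.3 RPKM in Dilkhush, 5.97 in Bangalore blue and 0.993 in Red globe. LOC100853060 was 21.2 RPKM against 0.442 and 0, and LOC100853024 was 12.7 against 0 in both. The entry left out, LOC104878807, was 9.97 RPKM in Dilkhush, just under the floor, against 0.495 and 0. Thus Dilkhush exceeded the others in all 5.

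RD22-C lay in a looser run of 5 higher rows among 13 entries. LOC104879000, a neighbour of it, was 29.1 RPKM in Dilkhush against 1.68 and 0.905, while LOC100254233 at the far end was the 1175 RPKM row named above. A run of 3 adjacent higher rows, LOC100244461, LOC100249610 and LOC100259841, was 35.7, 21.1 and 32.0 RPKM in Dilkhush, and between 0 and 3.58 in the others. On either side of the thaumatin-like genes TL3 and TL1, LOC100265026 was 7.95 RPKM in Dilkhush against 275 and 38.0, and LOC100263272 was 55.6 against 993 and 594. TL3 itself was 3779 RPKM in Dilkhush, near Red globe at 3959, with Bangalore blue at 23183.

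**Figure D4:**
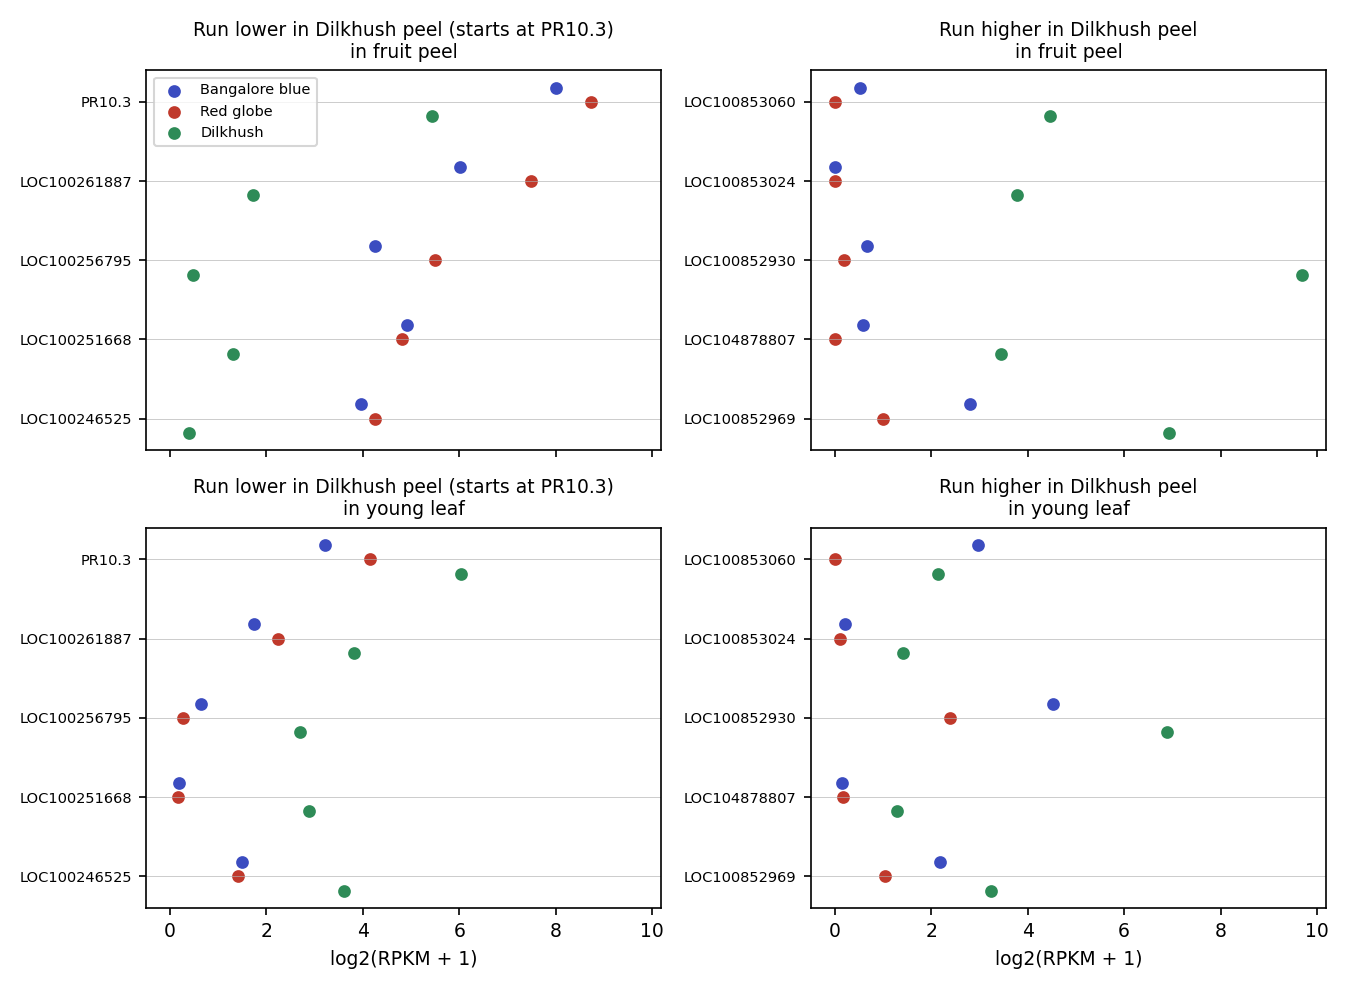
Levels as log2(RPKM + 1) of 2 runs of neighbouring entries, in reference order from top to bottom, in fruit peel (upper panels) and young leaf (lower panels), 1 point per cultivar. In the run that starts at PR10.3 Dilkhush is leftmost in peel and rightmost in leaf on all 5 rows; in the other run it is rightmost on all 5 rows in peel.

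Young leaf gives values that the rule did not use. Row names matched a single leaf row for 151 of the 161 higher and 51 of the 58 lower members. The median log2 difference of the higher members in leaf was 0.14 against Bangalore blue and 0.18 against Red globe, and that of the lower members was 0.04 and 0.37. In leaf Dilkhush was above both others in 54 of the 151 (35.8%) and below both in 33 (21.9%), against 27.8% and 28.9% of the other matched rows at the floor. Of the 51 lower members it was above both in 22 (43.1%) and below both in 13 (25.5%), the latter near the 28.9% of the other rows. The size of the peel differences was thus not carried over to leaf for most members.

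The anthocyanin members show this. GST4 was 53.2 RPKM in Dilkhush leaf, 2.58 in Bangalore blue and 162 in Red globe, so that Dilkhush leaf exceeded Dilkhush peel in listed value. UFGT was 7.87 RPKM against 3.03 and 11.6, and FAOMT 9.32 against 3.47 and 21.0. F3H was 625 RPKM in Dilkhush leaf against 608 and 322, and CHS3 was 135 against 176 and 70.5. RD22-C, near 0 in both other peels, was 86.8 RPKM in Dilkhush leaf against 181 and 297. PR-1 was in leaf again highest in Dilkhush, at 1272 RPKM against 363 and 319.9, with log2 differences of 1.81 and 1.99.

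A small group passed the same rule in the same direction in leaf. In leaf 8 of the 151 higher members (5.30%) were again at least 4-fold above both others, and 3 of the 51 lower members (5.88%) again at least 4-fold below. In the leaf table as a whole the rule counted 0.897% of rows at the floor higher and 0.907% lower, and among the other matched peel rows 0.191% and 0.667%. GFH2 was the only one of the 11 with a symbol, at 117 RPKM in Dilkhush leaf against 21.2 and 25.8. LOC104880946 was listed at 0 in Bangalore blue and Red globe in both tissues and was 12.5 RPKM in Dilkhush peel and 13.8 in Dilkhush leaf.

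LOC104880537 was 27.7 RPKM in Dilkhush peel against 0.230 and 0.284, and 53.7 in leaf against 0.716 and 0.830. LOC104881346 was 48.2 RPKM in peel against 2.26 and 0.926, and 80.2 in leaf against 0.730 and 1.39. On the lower side, LOC104881428 was 0.640 RPKM in Dilkhush peel against 78.4 and 213, and listed at 0 in leaf against 39.0 and 242. LOC100854200 was 0.128 RPKM in peel against 49.1 and 20.2, and 0.0715 in leaf against 28.6 and 10.2. LOC104881978 was 0.0782 RPKM in Dilkhush leaf against 15.9 and 29.3. These rows were named after their values were seen.

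Members differed among themselves in their leaf levels. All 3 leaf columns reached 10 RPKM in 48.3% of the matched higher members and 19.6% of the lower, against 79.4% of the other matched rows at the floor. No leaf column reached 1 RPKM in 7.28% and 13.7%, against 0.56% of those other rows. Of the 32 higher rows under 1 RPKM in both other peels, 30 were matched in leaf, of which 8 reached 10 RPKM in every leaf column and 9 were under 1 RPKM in every leaf column. LOC100260258 was the largest of those 8 in peel, at 56.7 RPKM in Dilkhush, 0 in Bangalore blue and 0.218 in Red globe, and was 157, 119 and 416 RPKM in the leaves. The 4 green tissue markers were all somewhat higher in Dilkhush peel, PSBP1, a photosystem II protein, being 483 RPKM against 350.4 and 239. None met the rule, and their part in the higher rows was not tested.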

How the data were processed

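Per the labels' protocols, directional mRNA libraries were made from RNA of young leaves and fruit peels. The submitters' processing notes name TopHat2 2.1.1 and Cufflinks 2.2.1 and give no role. The authors deposited RPKM in 1 table for each tissue, with 1 column for each cultivar, per the file headers. Not given in the sources used here are their genome build, annotation and way of merging the 2 libraries. RPKM is relative to the column's own reads, so abundant rows lower the rest. Low values showed no steps of whole reads: at most 0.962% of low pairs shared a ratio between columns, rounded to 2 decimals. Intervals and detection limits therefore cannot be given.

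Columns were tied to cultivars by the initials in the sample titles. Differences are of log2(RPKM + 1), which understates those of low rows, and the limma fit planned for the case of both libraries could not be made. Rows with names starting TRNA were left out. A list row was used where a peel column reached 1 RPKM. Names came from the file and, for LOC numbers, from RefSeq symbols and synonyms (GCF_030704535.1), in which 22516 of 25116 were found. The same table gave gene order, and none of its coordinates are used since the builds may differ. Rows with several names (9 higher, 2 lower members) and repeated names (5 and 2, in either table) may share reads. The members, gene lists and tests were chosen with earlier results of these data known. Named are all members with a symbol, 2 each way without, 2 to 4 of the largest differences in each list, and, chosen after their values were seen, further list rows and rows marked so in the text. The rule was run on simulated columns with 8-fold changes and an assumed noise. That run does not show how the rule does near 4-fold or near 10 RPKM. Python 3.11.15, pandas 2.3.3 and numpy 2.4.6 were used. Alternatives were the pseudocount, floors, a filter, the 4-fold size, 3 column scalings, rows of shared names left out and the neighbour window.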

Additional observations from a re-analysis of the deposited data

Results flagged for a closer look

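A pair of members stood past the 4-fold rule in opposite directions in the 2 tissues, a difference between tissues that was not tested. LOC100246525, in the run that starts at PR10.3, was lower in Dilkhush peel, and in leaf was higher than both others by at least 2.13 on the log2 scale. LOC100852822 was 129 RPKM in Dilkhush peel against 26.1 in Bangalore blue and 11.6 in Red globe, and in leaf was 28.1 against 124 and 143, a smaller log2 difference of -2.11.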

How the results depend on the processing

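No paired analysis was possible because each cultivar and tissue has 1 deposited column, so neither the replicate block nor leaving out a replicate could be run. The counts of 161 higher and 58 lower rows became 55 and 23 with a floor of 50 RPKM, and 59 and 32 with an 8-fold size. Requiring at least 5 RPKM in 2 columns kept all 58 lower rows and 62 higher ones, since it removes higher rows under 5 RPKM in both other peels. The other settings gave between 137 and 226 higher and between 54 and 84 lower, the lower count being 78 where the floor applied to the highest column only. Setting columns to equal sums with transfer RNA left out moved the median of all rows at the floor from 0.15 to -0.01 against Red globe and gave 137 higher and 68 lower. Of the members with a symbol, LAR2 alone lost the 4-fold size under a scaling. Members of opposite direction in leaf rose from 2 to 4 with no floor. Lower members with another as immediate neighbour numbered 5, against 9 within 5 entries, a window added after the data were seen. With 1 value per cultivar and unknown depth, rows near 10 RPKM are the least certain.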
